A study of Mus with 96 samples.

Results

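The 9 genes described here are the liver's secreted serpins of clade A on mouse chromosome 12: Serpina1a, Serpina1b, Serpina1c, Serpina1d, Serpina1e, Serpina3k, Serpina3m, Serpina3n, and Serpina6. They were chosen by name from the 55487 genes counted, with their change on a steatohepatitis diet already in view, so that change is given as a description with no test. Sex was not used to choose them. Sex, genotype, and time of day were tested, but earlier results of these data were known when the genes were chosen. All 9 passed the filter of at least 100 counts over the 96 libraries, as did 15548 genes in total. On normal chow (NC) Serpina1e was 21.5-fold higher in male than in female livers, 8 of the 9 genes differed between the sexes, beside 18.6% of all genes tested, and 5 to 6 of the 9 did with 1 replicate number left out. On the diet the sex difference of 4 of the 9 was smaller, in a test that 7.91% of all genes passed.

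The samples were livers of 96 mice of both sexes on a C57BL/6J background, which were 8 to 10 weeks old when they entered the experiment, before acclimation and the diet period. All carried floxed Bmal1 alleles (Bmal1 flx/flx), and those labelled Hep-Bmal1KO carried in addition an albumin-driven Cre (Alb Cre/+), which deletes the clock gene Bmal1 in hepatocytes, while their littermates labelled Hep-Bmal1WT had no Cre. Mice of each label ate NC or, for 2 weeks, a high-fat diet lacking choline (cdHFD), 24 mice in each of the 4 groups, and 4 livers were taken at each of zeitgeber times (ZT) 2, 6, 10, 14, 18, and 22. Each set of 4 held 2 males and 2 females, except cdHFD-fed Hep-Bmal1WT mice at ZT14, with 3 males and 1 female. Replicate numbers 1 and 2 were males and 3 and 4 females in every NC set. On cdHFD the numbers of the sexes were exchanged at ZT2, and at ZT14 replicate 3 labelled Hep-Bmal1WT was also male. Leaving out 1 replicate number thus removed mice of 1 sex on NC and mostly of 1 sex on cdHFD. Since every Hep-Bmal1KO mouse also carried Cre, effects of Cre and of the deletion cannot be told apart.

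Serpins are protease inhibitors that trap their target by a large change of shape after the protease has cut their reactive loop. Hepatocytes secrete those of clade A into the plasma in large amounts. Serpina1 genes encode forms of alpha-1 antitrypsin, which in humans comes from a single gene and inhibits neutrophil elastase. In this mouse strain they are a row of near-identical copies, and what each copy inhibits was not examined here. The Serpina3 genes of the mouse are the expanded counterpart of human alpha-1 antichymotrypsin: Serpina3k (contrapsin) is an abundant plasma inhibitor, and Serpina3n is an acute phase protein that inhibits granzyme B and cathepsin G. Serpina6 is corticosteroid-binding globulin, which carries glucocorticoids in the blood and does not inhibit proteases.

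In the RefSeq annotation of GRCm38.p6, the assembly of mm10, the genes lie in 1 stretch of chromosome 12. Serpina6 (ENSMUSG00000060807) spans 103646630 to 103657218. The 5 Serpina1 copies follow in the order Serpina1b (ENSMUSG00000071178, 103728156 to 103738189), Serpina1d (ENSMUSG00000071177, 103763587 to 103773633), Serpina1a (ENSMUSG00000066366, 103853295 to 103863619), Serpina1c (ENSMUSG00000079015, 103894926 to 103904950), and Serpina1e (ENSMUSG00000072849, 103946931 to 103956897). Serpina3k (ENSMUSG00000058207) spans 104338486 to 104345739, Serpina3m (ENSMUSG00000079012) 104387157 to 104394259, and Serpina3n (ENSMUSG00000021091) 104406646 to 104414334. The reads cover the 3′ end of each mRNA, where near-identical copies can share sequence. The table holds 0 reads in its entries for ambiguous and multiply aligned reads in every library, so it does not show how shared reads were treated, and the values of single Serpina1 copies and of Serpina3 genes are uncertain to that extent.

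Library depth, as reads assigned to genes, ran from 1861740 to 9718615 (median 6412078.5). The 9 genes took 2.55% to 7.58% of them on NC (median 4.46%) and 1.01% to 1.96% on cdHFD (median 1.44%), ranges that do not overlap. Levels below are CPM, read counts scaled to a common library total with edgeR's TMM factors. Arntl, the symbol of Bmal1 in the table, on cdHFD at ZT22 had 21.2 ± 1.98 CPM under the Hep-Bmal1WT label and 7.72 ± 1.45 CPM under the Hep-Bmal1KO label (SD, n = 4 each). The order was the other way at some times, with 0.75 ± 0.46 CPM under the Hep-Bmal1WT label and 5.77 ± 3.81 CPM under the Hep-Bmal1KO label on NC at ZT10, and over the day the medians on NC were 7.21 and 7.55 CPM (n = 24 each). Whether the 3′ reads lie outside the deleted part is not given in the sources used here, so these counts do not check the deletion. On 10 clock genes and on 20 other genes, 7 of the 96 libraries were nearer the other genotype than their label, 2 in each group except cdHFD-fed Hep-Bmal1KO mice, with 1, so the genotype groups are named by label. Y-linked genes matched the sex label in all 96 libraries, and 1 library labelled female, from a cdHFD-fed Hep-Bmal1KO mouse at ZT10, had 0.405 CPM of Xist against at least 38.1 CPM in the other females.

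On cdHFD the reads of the Serpina1 copies and of Serpina3k were lower than on NC, Serpina3m differed little, and Serpina3n was higher. As log2 fold changes of cdHFD against NC in livers labelled Hep-Bmal1WT, the 5 copies were at -1.32 (Serpina1a, standard error 0.053), -1.36 (Serpina1b), -2.34 (Serpina1c), -2.16 (Serpina1d), and -6.24 (Serpina1e, standard error 0.58). Serpina3k was at -3.04, Serpina6 at -1.18, Serpina3m at -0.38, and Serpina3n at 0.46. In livers labelled Hep-Bmal1KO the values were -1.52, -1.44, -2.60, -2.29, and -6.16 for Serpina1a to Serpina1e, -3.22 for Serpina3k, -1.12 for Serpina6, -0.13 for Serpina3m, and 0.31 for Serpina3n. The median over the 9 genes was -1.36 and -1.52, beside 0.013 and 0.023 over all genes tested. In the same contrast 55.7% and 61.9% of all genes passed an adjusted p of 0.05 (28.7% and 32.4% higher, 27.0% and 29.6% lower on cdHFD), and nothing is read from the members in it.

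The copies thus spanned very different sizes of change although they lie side by side. Serpina1a ranged from 5045 to 9945 CPM on NC (median 8015) and from 2071 to 4058 CPM on cdHFD (median 2939), and no mouse of one diet overlapped those of the other. Serpina3k ranged from 3336 to 23425 CPM on NC (median 11638) and from 623 to 2734 CPM on cdHFD (median 1259), again without overlap. In all 12 combinations of genotype and ZT, every cdHFD-fed mouse was below every NC-fed mouse for Serpina1a, Serpina1b, Serpina1c, Serpina1d, and Serpina3k, and the same held in 9 for Serpina1e, 3 for Serpina6, and 1 for Serpina3m. For Serpina3n every cdHFD-fed mouse was above every NC-fed mouse in 4 of the 12. The share of all genes that separated in this way was not counted, so nothing is read from these counts. A ratio within a library does not depend on scaling: the mean log2 ratio of Serpina1e to Serpina1a was -2.32 ± 2.68 on NC and -5.65 ± 0.76 on cdHFD (SD, n = 48 each). Within the sexes the median ratio was 0.32 in NC males, -4.46 in NC females, -5.14 in cdHFD males, and -6.16 in cdHFD females.

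**Figure D1:**
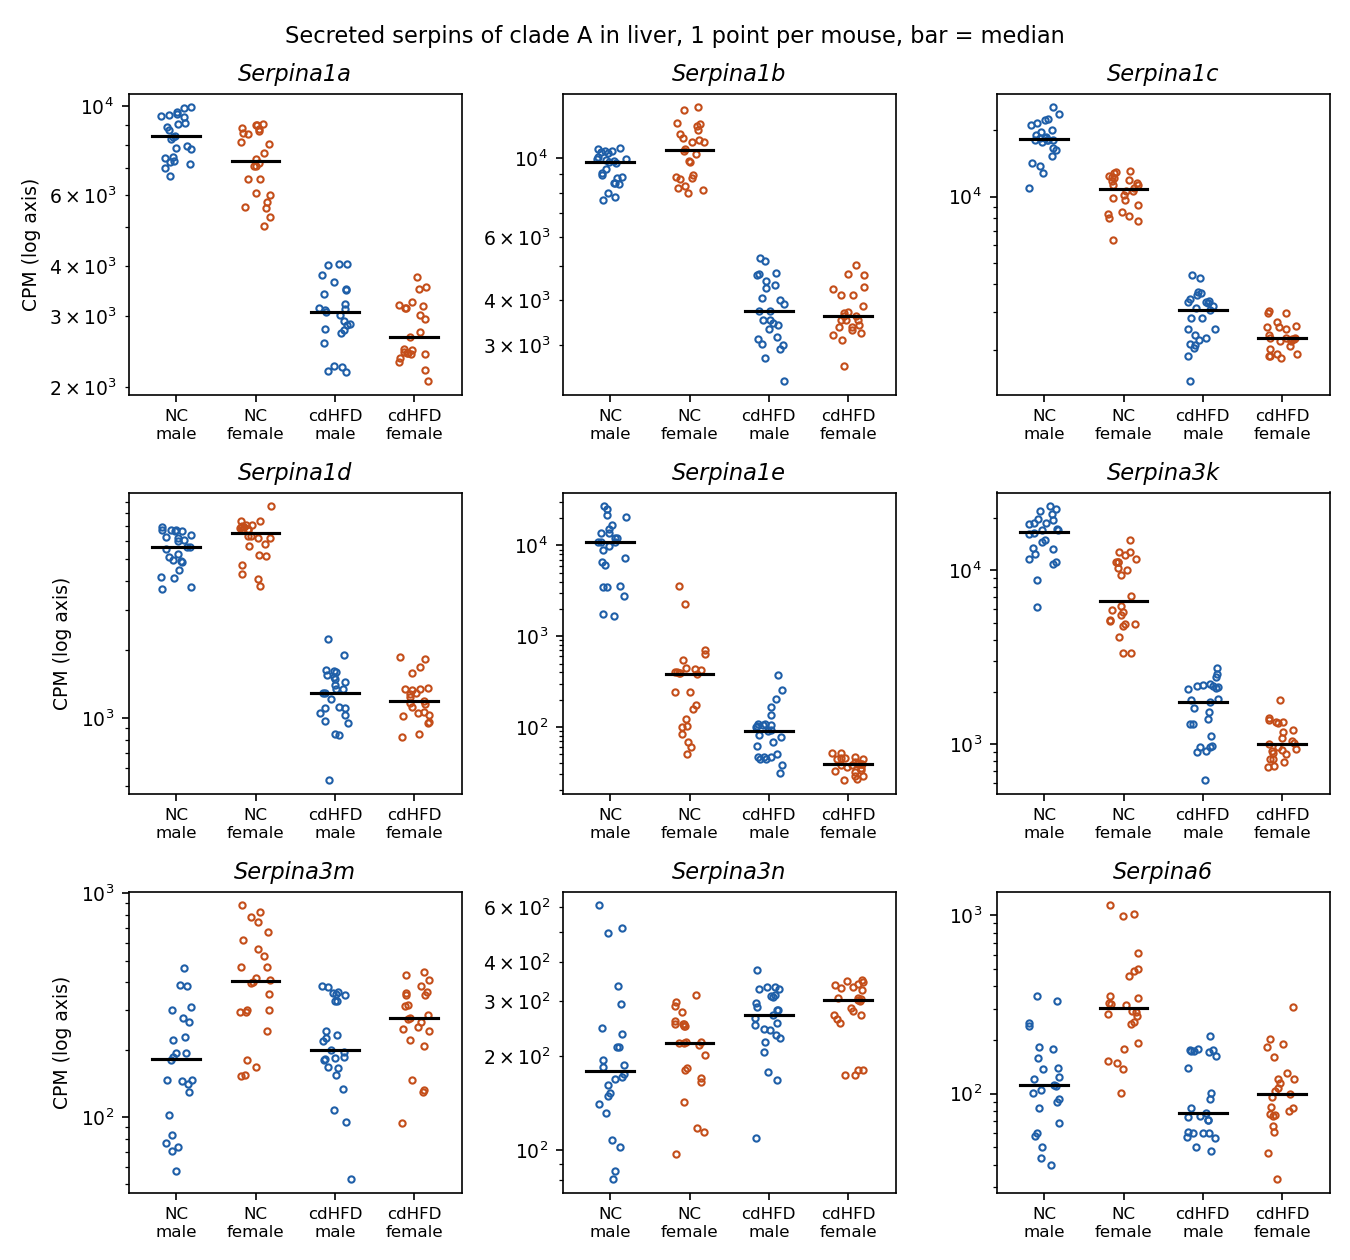
CPM of each of the 9 serpins on a log axis, 1 point per mouse with the median as a bar, for NC males (n = 24), NC females (n = 24), cdHFD males (n = 25), and cdHFD females (n = 23). Serpina1e has a median of 10959 CPM in NC males, 387 in NC females, 91.4 in cdHFD males, and 38.8 in cdHFD females, while Serpina3n lies within 80.6 to 608 CPM in all 4 groups.

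Males and females differed widely in these genes on NC. Of the 9 genes, 4 were lower and 4 higher in females (edgeR's quasi-likelihood test, adjusted by Benjamini-Hochberg over the 15548 genes). Of all genes 18.6% passed, 8.64% as lower and 9.98% as higher. The largest difference was in Serpina1e, with 1681 to 27098 CPM in males (median 10959) and 49.8 to 3558 CPM in females (median 387), which is -4.95 as the log2 fold change of female against male (standard error 0.39, adjusted p = 2.6e-14). Only the highest females reached the lowest males: within a genotype and ZT, every male was above every female in 11 of 12 combinations. The exception was Hep-Bmal1WT mice at ZT6, where the males had 3522 and 1681 CPM and the females 634 and 3558 CPM. How many of all genes separated by sex in this way was not counted, so nothing is read from the 11 of 12.

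The other male-high serpins on NC were Serpina3k, Serpina1c, and Serpina1a. Serpina3k had 6189 to 23425 CPM in males (median 16749) and 3336 to 14876 CPM in females (median 6679), with a log2 difference of -1.03 (standard error 0.13, adjusted p = 2.2e-08). Serpina1c had 10961 to 25491 CPM in males (median 18222) and 6321 to 13071 CPM in females (median 10782), with a log2 difference of -0.81 (standard error 0.066, adjusted p = 1.2e-13). The groups overlapped over the whole day, but within a genotype and ZT every male was above every female in 11 of 12 combinations for Serpina3k and for Serpina1c. For Serpina1a the same held in 8 of 12, and every female was above every male in 2. Such separation was not counted over all genes, so nothing is read from these counts. Serpina1a differed by only -0.22 (standard error 0.057, adjusted p = 0.0045) and lost the call without replicate 2 (adjusted p = 0.057).

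Serpina6 and Serpina3m were the female-high serpins. Serpina6, the carrier of glucocorticoids, had 39.9 to 352 CPM in males (median 111) and 100 to 1138 CPM in females (median 303), with a log2 difference of 1.49 (standard error 0.14, adjusted p = 3.6e-12). Every female was above every male in 10 of the 12 combinations of genotype and ZT. Serpina3m had 57.6 to 463 CPM in males (median 182) and 152 to 884 CPM in females (median 406), with a log2 difference of 1.19 (standard error 0.11, adjusted p = 7.8e-12), and every female was above every male in 11 of 12. Serpina1b and Serpina1d were higher in females by 0.14 and 0.15 (adjusted p = 0.018 and 0.014), and lost the call whenever 1 replicate number was left out, with adjusted p between 0.063 and 0.15. Serpina3n, with a log2 difference of 0.11 (95% interval -0.14 to 0.36, adjusted p = 0.63), did not pass the threshold. For Serpina3n every female was above every male in 5 of the 12 combinations, and every male above every female in 2. Here too the share of all genes that separated was not counted, so nothing is read from the counts of combinations.

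The makeup of the Serpina1 reads differed accordingly between the sexes. Serpina1e held 19.5% ± 9.78 of the reads counted on the 5 copies in NC males and 1.37% ± 1.92 in NC females (SD, n = 24 each). Its share was 0.89% ± 0.58 in cdHFD males (n = 25) and 0.39% ± 0.086 in cdHFD females (n = 23). Serpina1b held 18.3% ± 2.73 in NC males, 30.1% ± 2.13 in NC females, 34.05% ± 1.86 in cdHFD males, and 36.9% ± 0.90 in cdHFD females. The summed level of the 5 copies had a median of 52486 CPM in NC males, 37853 in NC females, 11309 in cdHFD males, and 9696 in cdHFD females.

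**Figure D2:**
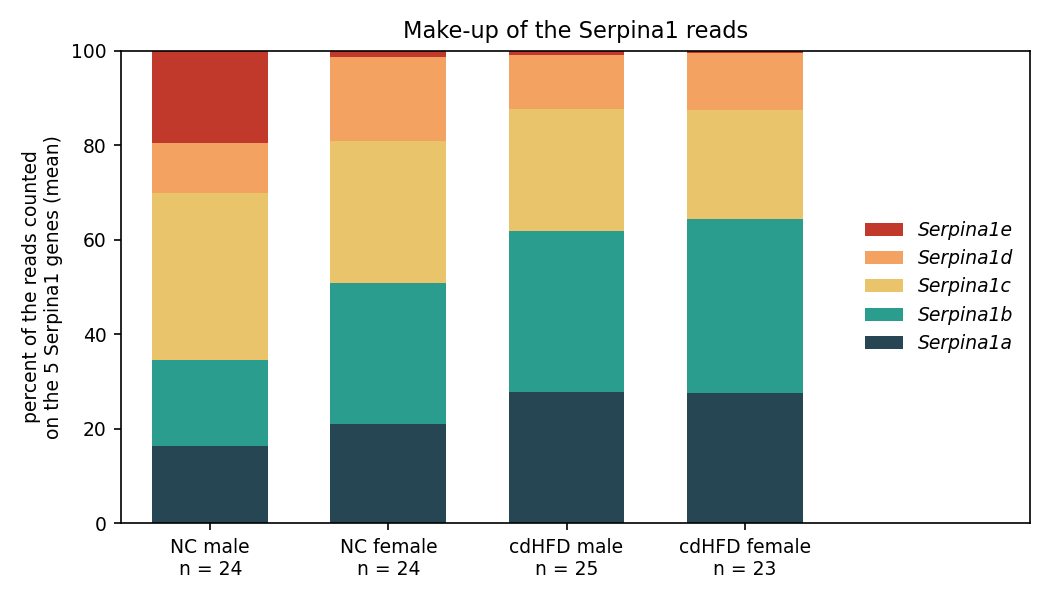
Mean percent of the reads counted on the 5 Serpina1 copies that fell on each copy, by diet and sex, with 24 NC males, 24 NC females, 25 cdHFD males, and 23 cdHFD females. The Serpina1e segment is 19.5% in NC males and under 2% in the other 3 groups.

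On cdHFD fewer of the sex differences remained past the threshold, 4 of 9 genes (3 lower and 1 higher in females) beside 5.76% of all genes (2.35% lower and 3.42% higher). Serpina1e had 31.1 to 377 CPM in males (median 91.4) and 26 to 52 CPM in females (median 38.8), with a log2 difference of -1.22 (standard error 0.17, adjusted p = 1.0e-06). Serpina1c was lower in females by -0.28 (standard error 0.059, adjusted p = 0.0011) and Serpina3k by -0.54 (standard error 0.10, adjusted p = 0.00028), and Serpina3m was higher by 0.37 (standard error 0.098, adjusted p = 0.013). Serpina6, with 47.9 to 209 CPM in males (median 77.8) and 33.3 to 308 CPM in females (median 99.8), overlapped between the sexes and had a log2 difference of 0.16 (95% interval -0.088 to 0.41, adjusted p = 0.57). Serpina1a, Serpina1b, Serpina1d, and Serpina3n did not pass the threshold either, with log2 differences between -0.12 and 0.10. Leaving out replicate 4 ended the calls of Serpina1c, Serpina3k, and Serpina3m and left Serpina1e as the 1 gene called, and the call of Serpina3m was also lost without replicate 2 or 3 (adjusted p = 0.11 and 0.13).

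**Figure D3:**
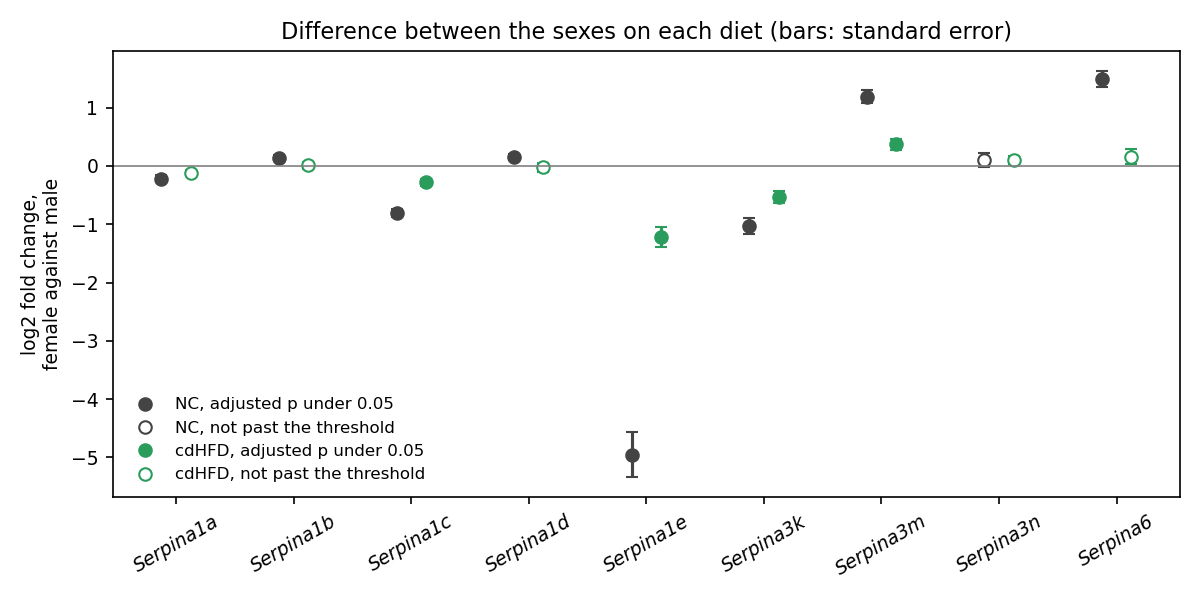
Log2 fold change of female against male for the 9 serpins on NC (grey) and cdHFD (green), with the standard error as bars and filled points where the adjusted p was under 0.05. Serpina1e moves from -4.95 to -1.22 and Serpina6 from 1.49 to 0.16 between the diets.

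The change of the sex difference with diet was itself tested over all 96 livers, and 4 of the 9 genes passed, beside 7.91% of all genes (3.68% with a positive and 4.23% with a negative change). The log2 difference between females and males changed from NC to cdHFD by 3.73 for Serpina1e (standard error 0.40, adjusted p = 1.5e-11), by 0.53 for Serpina1c (standard error 0.090, adjusted p = 1.2e-05), by -0.82 for Serpina3m (standard error 0.16, adjusted p = 8.9e-05), and by -1.34 for Serpina6 (standard error 0.19, adjusted p = 1.8e-07). In each of these 4 genes the difference between the sexes was nearer 0 on cdHFD than on NC. On cdHFD Serpina1e held a mean of 0.89% of the reads of the 5 Serpina1 copies in males and 0.39% in females. The part of reads shared with the other copies in these values was not tested. For Serpina3k the change was 0.49 (standard error 0.17, adjusted p = 0.064). It passed in only 1 of 11 alternatives, with no filter beyond 1 count (0.48, adjusted p = 1.9e-08), and the adjusted p reached 0.27 in the others. For Serpina3n it was -0.0084, with a 95% interval of -0.30 to 0.28.

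Seen as the diet change within each sex, described without a test, Serpina1e was at -6.69 in males (standard error 0.23) and at -3.00 in females (standard error 0.29). In linear terms its mean was 107-fold higher on NC than on cdHFD in males and 13.4-fold higher in females. Serpina6 was at -0.31 in males (standard error 0.14) and -1.59 in females (standard error 0.14), and Serpina3m at 0.27 in males (standard error 0.13) and -0.51 in females (standard error 0.081), so that the small pooled value of Serpina3m covered opposite signs. Serpina3k was at -3.31 and -2.79, and Serpina1c at -2.68 and -2.13. Serpina1a, Serpina1b, and Serpina1d were between -1.33 and -2.29 in both sexes, and Serpina3n was at 0.43 in males and 0.47 in females.

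**Figure D4:**
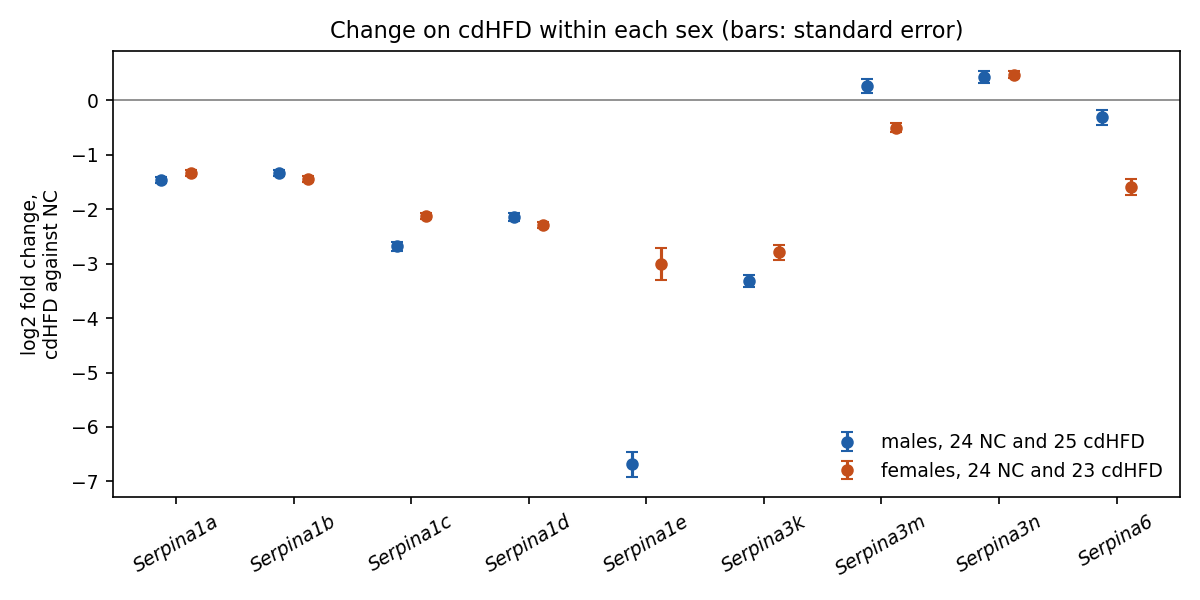
Log2 fold change of cdHFD against NC for the 9 serpins in males (24 NC, 25 cdHFD) and females (24 NC, 23 cdHFD), with the standard error as bars. Serpina1e is at -6.69 in males and -3.00 in females, Serpina6 at -0.31 and -1.59, and Serpina3n above 0 in both.

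On NC every male library was named with a row letter A, B, E, or F and every female library with C, D, G, or H, so row and sex cannot be told apart there. On cdHFD the letters of the sexes were exchanged at ZT2. There Serpina1e had 91.4 and 377 CPM in the males and 39.1 and 51.5 CPM in the females labelled Hep-Bmal1WT, and 46.9 and 44.9 CPM against 46.9 and 29 CPM in those labelled Hep-Bmal1KO. The males labelled Hep-Bmal1WT were above the females, as at the other ZTs, and those labelled Hep-Bmal1KO overlapped with them. Without the library labelled female that lacked Xist, the same 4 genes passed the test on cdHFD and the same 4 the test of sex by diet. The numbers after the row letters were not shared between any of the 4 groups of genotype label and diet. Library number thus cannot be told apart from genotype label or diet.

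Between diets the levels of cell type markers moved too. Summed over 6 hepatocyte markers (Alb, Ttr, Apoa1, Cps1, Tat, Cyp2e1) the level was 72760 to 204898 CPM on NC (median 124677) and 46930 to 89276 CPM on cdHFD (median 66826), and each of the 6 had a lower mean on cdHFD. The 6 macrophage markers summed to 176 to 558 CPM on NC and 953 to 2747 CPM on cdHFD, and all 6 had a higher mean. The 6 stellate cell markers summed to 153 to 399 CPM and 475 to 1442 CPM, and 6 markers of other leukocytes to 6.46 to 31.3 CPM and 42.9 to 126 CPM, with Cd3e and Cd79a at 0 in 16 libraries each. For 5 endothelial markers the ranges were 81.2 to 224 CPM and 95.4 to 220 CPM, and for 5 cholangiocyte markers 33.2 to 145 CPM and 52.1 to 750 CPM. Between the sexes on NC the hepatocyte markers, mostly Alb in sum, had a median of 97704 CPM in males and 159558 CPM in females. Also with males first, the medians were 302 and 415 CPM for macrophage markers, 226 and 305 CPM for stellate markers, and 137 and 167 CPM for endothelial markers. They were 13.1 and 16.3 CPM for markers of other leukocytes and 70.7 and 69.6 CPM for cholangiocyte markers. In whole liver, a change in the number of cells of a type, in RNA per cell, and in the expression of its markers cannot be told apart. The part of these shifts in the serpin results was not tested.

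Serpina6 was lower under the Hep-Bmal1KO label on both diets, and which other serpins passed depended on the fit. On NC only Serpina6 passed the test, 1 of 9 beside 12.6% of all genes (5.61% lower under the Hep-Bmal1KO label), with a log2 fold change of Hep-Bmal1KO against Hep-Bmal1WT labels of -0.75 (standard error 0.26, adjusted p = 0.042). Its levels were 90.1 to 1138 CPM in livers labelled Hep-Bmal1WT (median 282) and 39.9 to 987 CPM in livers labelled Hep-Bmal1KO (median 143), so the groups overlapped. The call was lost without replicate 1, 2, or 3 (adjusted p = 0.17, 0.095, and 0.073). With sex as a covariate the value was -0.87 (adjusted p = 1.2e-05). Without the NC libraries that went against their label, 2 under each label, it was -1.08 (adjusted p = 0.0011).

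Serpina1e and Serpina3m also differed between the genotype labels on NC once sex was in the model, an alternative to the main fit. Serpina1e was then at -1.34 (adjusted p = 0.0044) and Serpina3m at -0.52 (adjusted p = 0.0012), against adjusted p of 0.52 and 0.099 without sex. In females alone Serpina1e was at -1.91 (adjusted p = 0.014), and in males alone at -0.62 (adjusted p = 0.036). The females labelled Hep-Bmal1WT had 159 to 3558 CPM and those labelled Hep-Bmal1KO 49.8 to 542 CPM. In males alone Serpina1c (0.34, adjusted p = 0.0034) and Serpina3n (0.41, adjusted p = 0.0058) passed as higher in livers labelled Hep-Bmal1KO. Whether these genotype differences differ between the sexes was not tested. On NC the hepatocyte markers had a median of 147010 CPM under the Hep-Bmal1WT label and 96132 CPM under the Hep-Bmal1KO label, on cdHFD 72088 and 60816 CPM. In the same order the cholangiocyte markers had medians of 51.1 and 89.9 CPM on NC and 104 and 225 CPM on cdHFD, and the stellate markers 260.97 and 265.6 CPM on NC and 633 and 783 CPM on cdHFD. The hepatocyte sums were mostly Alb, with a mean of 87819 of 131925 CPM on NC, and the single markers are not given by label here. Of 14 abundant secreted liver proteins, Alb among them, 3 were higher and 3 lower under the Hep-Bmal1KO label on NC, beside 12.6% of all genes. On cdHFD 2 were higher and 4 lower, beside 9.61% of all genes. The part of these markers and proteins in the genotype results was not tested.

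On cdHFD, 2 of the 9 were lower in livers labelled Hep-Bmal1KO and none was higher, beside 4.99% of all genes lower, 4.62% higher, and 9.61% in either direction. Serpina6 had 57.5 to 308 CPM in livers labelled Hep-Bmal1WT (median 131) and 33.3 to 183 CPM in livers labelled Hep-Bmal1KO (median 74.3), or -0.69 on the log2 scale (standard error 0.13, adjusted p = 0.00014). Serpina1a had 2071 to 4040 CPM (median 3195) against 2186 to 4058 CPM (median 2463), or -0.28 on the log2 scale (standard error 0.058, adjusted p = 0.00071). Both overlapped between the labels over the day. Serpina6 passed in all 13 alternatives tried and Serpina1a in 12, the exception being males alone (-0.18, adjusted p = 0.23). Serpina1e, with 26.9 to 377 CPM (median 65.1) against 26 to 253 CPM (median 40.01), was at -0.69 (standard error 0.24, adjusted p = 0.060). It passed in 3 of 13 alternatives: with sex as a covariate (-0.51, adjusted p = 0.046), without the libraries that went against their label (-0.86, adjusted p = 0.0073), and with no filter beyond 1 count (adjusted p = 0.0096). It did not pass in males alone (-0.80, adjusted p = 0.072) or in females alone (-0.17, adjusted p = 0.35). The Hep-Bmal1WT side held the ZT14 set with 3 males and 1 female, and the male with 377 CPM. In females alone Serpina1b (-0.23, adjusted p = 0.025) and Serpina3m (-0.35, adjusted p = 0.014) passed in addition to Serpina6 and Serpina1a. None of the 9 passed the test of genotype by diet, beside 3.04% of all genes (1.04% higher and 2.00% lower): the smallest p was that of Serpina1a, at an unadjusted p of 0.029 (adjusted p = 0.23), which was the 1 gene of 9 under 0.05 before adjustment, and with DESeq2 none of the 9 passed either.

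Over the day, the Serpina1 and Serpina3 genes that passed a test of a 24-hour rhythm peaked in the late dark phase, and Serpina6 peaked in the light phase. In NC-fed livers labelled Hep-Bmal1WT, 4 of 9 genes passed, beside 19.1% of all genes. Serpina3n peaked at ZT 20.7 with a log2 amplitude of 0.66 (adjusted p = 0.0023), Serpina1d at ZT 21.1 with 0.31 (adjusted p = 0.011), Serpina3k at ZT 19.98 with 0.56 (adjusted p = 0.013), and Serpina6 at ZT 10.1 with 0.87 (adjusted p = 0.0092). At ZT10 the 4 livers had 1138, 1010, 332, and 250 CPM of Serpina6, the higher pair from females, against 314, 285, 111, and 105 CPM at ZT22. Females were the higher pair at both times. Without replicate 1, a male in every NC set, none of the 4 passed (adjusted p between 0.051 and 0.13). Serpina6 also lost the call without replicate 4 (adjusted p = 0.052) and in a cosinor test on transformed values (adjusted p = 0.076).

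In cdHFD-fed livers labelled Hep-Bmal1WT, Serpina1c, Serpina3m, Serpina3n, and Serpina6 passed, 4 of 9 beside 14.6% of all genes. Their peaks were at ZT 20.3, 19.9, 20.6, and 7.26, with log2 amplitudes of 0.27, 0.50, 0.29, and 0.63 (adjusted p = 0.041, 0.036, 0.012, and 0.0041). Leaving out 1 replicate number at a time gave between 0 and 7 genes. In livers labelled Hep-Bmal1KO none of the 9 passed on NC, beside 4.34% of all genes, or on cdHFD, beside 3.83%. The rhythm fits of all groups held no term for sex, so differences between males and females added to the spread around the fitted curve. On NC in livers labelled Hep-Bmal1WT, Serpina1e had the largest log2 amplitude of the 9, 1.06, and did not pass the rhythm test (adjusted p = 0.37). Whether the rhythm calls would change with sex in the fit was not tested.

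At an unadjusted p under 0.05, Serpina3n and Serpina6 were rhythmic on NC in livers labelled Hep-Bmal1KO (adjusted p = 0.067 and 0.063), peaking at ZT 20.5 and 8.34, and with DESeq2 both passed on the adjusted p (0.019 and 0.037). Under 0.05 before adjustment on cdHFD were Serpina1e and Serpina6 (adjusted p = 0.12 and 0.19), and DESeq2 called none of the 9. The rhythms of the 2 labels were also compared directly, a test added after the data were seen. None of the 9 differed in the cosine and sine terms, beside 0.392% of all genes on NC and 0.424% on cdHFD, with the smallest adjusted p at 0.52 for Serpina1d on NC, which was the only gene of 9 on either diet under 0.05 unadjusted, and none by DESeq2. A p that misses the threshold in 1 label only does not show that the rhythms differ.

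**Figure D5:**
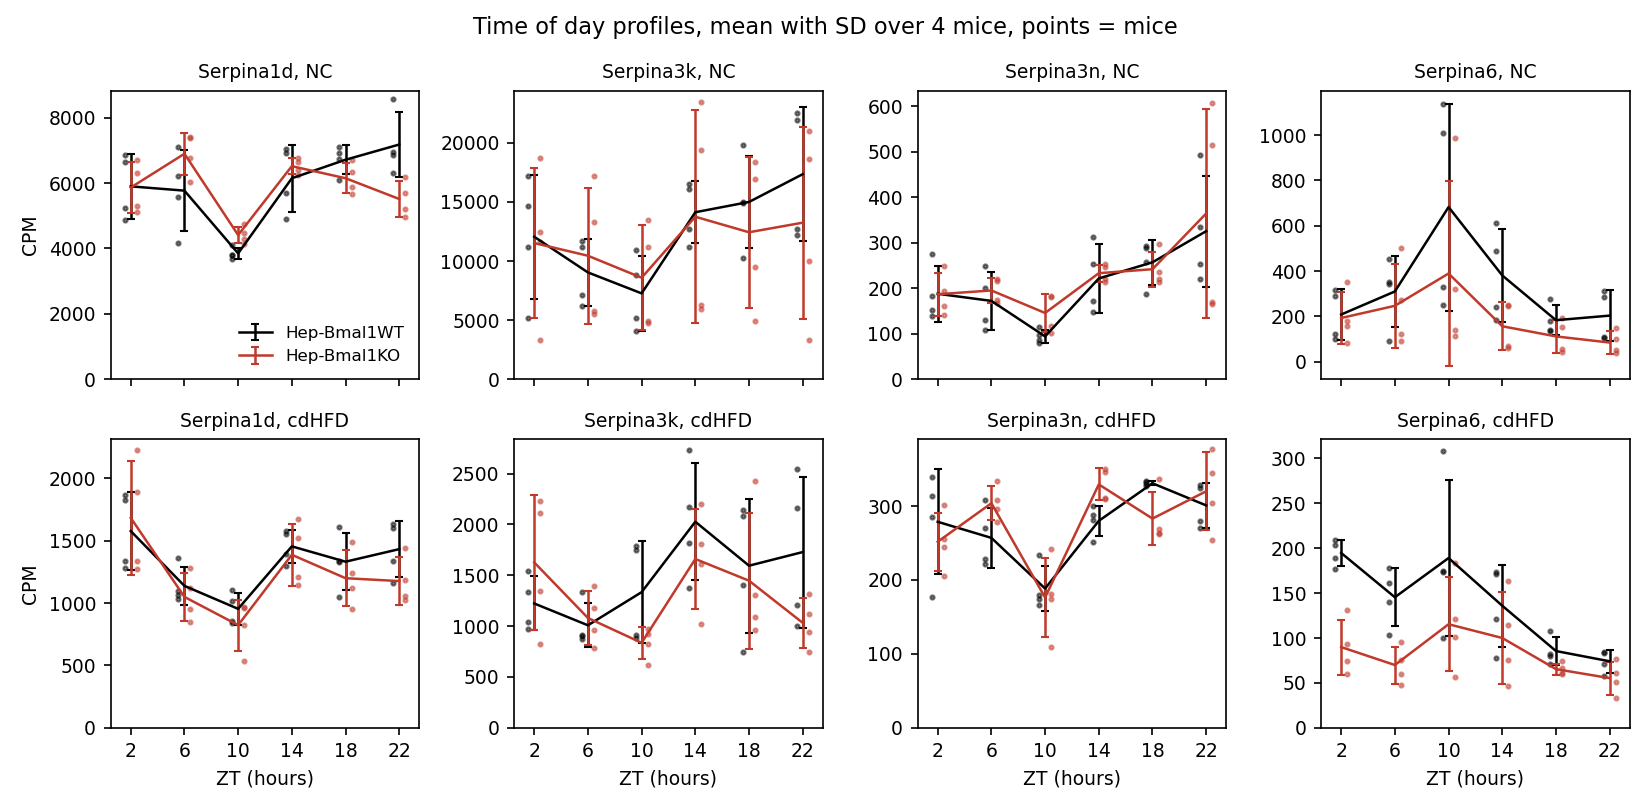
CPM over ZT for the 4 serpins that passed the rhythm test on NC in livers labelled Hep-Bmal1WT, on NC (top) and cdHFD (bottom), as mean with SD over 4 mice and 1 point per mouse, with Hep-Bmal1WT labels in black and Hep-Bmal1KO labels in red. Serpina1d, Serpina3k, and Serpina3n have their lowest NC mean at ZT10, where Serpina6 has its highest.

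Other serpins gave a background for these values. Of the 17 other clade A serpins listed, 12 were tested. On NC 5 were lower and 1 higher in females, beside 18.6% of all genes, with a median of -0.92 against 0.018 over all genes. Serpina12 (vaspin) was lower by -2.09 (standard error 0.28, adjusted p = 9.0e-08), and Serpina4-ps1, Serpina9, and Serpina11 were lower by -2.60, -1.52, and -0.43, while Serpina3f was higher by 0.54. On cdHFD only Serpina12 was lower in females (-0.98, adjusted p = 2.0e-05), 1 of 12 beside 5.76% of all genes. Serpina12 and Serpina11 passed the test of sex by diet, 2 of 12 beside 7.91% of all genes. Of 9 secreted serpins of other clades, 4 were higher and 2 lower in NC females, beside 18.6% of all genes. They were led by Serpinc1 (antithrombin) at 0.27 and Serpine2 (protease nexin-1) at -1.16.

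With diet, 6 of the 12 other clade A serpins were higher and 5 lower on cdHFD in livers labelled Hep-Bmal1WT, among the 55.7% of all genes that passed. Serpina3g, Serpina7 (thyroxine-binding globulin), Serpina3f, and Serpina3i were higher by 1.504, 1.63, 1.60, and 3.43, and Serpina4-ps1, Serpina9, Serpina11, and Serpina12 lower by -7.74, -5.03, -0.66, and -1.33. Of 14 abundant secreted liver proteins, 13 were lower, beside 27.0% of all genes, with a median of -0.94. Only Trf (transferrin) was higher, at 0.28, beside 28.7% of all genes. This list shares Alb, Ttr, and Apoa1 with the hepatocyte markers. Of 21 other acute phase genes, 11 were higher, beside 28.7% of all genes, led by Lcn2 (lipocalin-2) at 5.19 and Saa3 at 3.22. Another 9 were lower, beside 27.0% of all genes, including Crp at -0.97 and the fibrinogen gene Fgb at -1.11.

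Genes that act on serpin expression or export were listed as well. Of 20 transcription factors and receptors, 12 were lower and 3 higher on cdHFD in livers labelled Hep-Bmal1WT, beside 55.7% of all genes called. The growth hormone receptor Ghr was lower by -1.55 (standard error 0.054), Hnf4a, a master regulator of hepatocyte genes, by -0.81, the glucocorticoid receptor Nr3c1 by -0.53, and Cebpa by -0.87, while Cebpd and the oncostatin M receptor Osmr were higher by 1.14 and 0.92. Between the sexes on NC, Il6ra and Stat5b were higher in females by 0.54 and 0.22, and Il1r1, Ghr, and Foxa1 were lower by -0.74, -0.22, and -0.62, which makes 5 of 20 beside 18.6% of all genes. Between the genotype labels on cdHFD, 4 of 20 were lower, beside 4.99% of all genes, among them Hnf4a by -0.25, Cebpa by -0.48, and Ghr by -0.28, and Cebpd was higher by 0.30. Of 14 genes for the export and quality control of secreted serpins, 8 were lower and 1 higher on cdHFD in livers labelled Hep-Bmal1WT. Of all genes, 27.0% were lower and 28.7% higher. The lower ones were led by Sel1l at -0.65 and included the cargo receptor Lman1 at -0.48. Between the sexes on NC 1 of the 14 differed, Edem3 at -0.36, beside 18.6% of all genes.

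As a description, genes were ranked by how closely their means followed those of the serpins over the 24 combinations of genotype, diet, and ZT, among 6895 genes with a mean of at least 10 CPM. These points share libraries and are dominated by diet. Closest to the summed Serpina1 copies were Gcdh, Hagh, and Ebp (Pearson r = 0.99 for each), and closest to the sum of Serpina3k and Serpina3m were Timd2, Echdc1, and Masp2 (r = 0.99, 0.98, and 0.98). For Serpina3n they were Pdlim1, 1110008P14Rik, and Lamp1 (r = 0.94, 0.93, and 0.92), and for Serpina6 Glt1d1, Spata2l, and Cyp2d26 (r = 0.91 for each). All of the genes closest to the Serpina1 copies had a lower mean on cdHFD, such as Gcdh with 407 CPM on NC and 195 CPM on cdHFD.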

How the data were processed

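Liver RNA was sequenced by BRB-seq, which reads the 3′ end of each mRNA. The authors deposited unnormalized read counts for each gene. The submitters' processing notes name STAR, the mm10 build, and both HTSeq and featureCounts, with versions not given in the sources used here. Whether reads with the same molecular identifier were counted once is not given in the sources used here. Groups, sex, and ZT came from the deposited labels. Each library was 1 mouse, and no library was left out of the main fits. Reads assigned to no gene stayed out of library totals (5.65% to 11.3% without a feature).

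The members and lists were chosen with earlier results of these data known. Genes with at least 100 counts over the 96 libraries were tested with the quasi-likelihood test of edgeR 4.0.16 in R 4.3.3, after TMM scaling, with Benjamini-Hochberg adjustment over all genes and a threshold of 0.05. Genotype was tested within each diet with ZT as a factor, genotype by diet over all libraries, sex and sex by diet with genotype, diet, and ZT combinations as a factor, and rhythm with a cosine and a sine term of 24 hours in each group of 24. Rhythm by genotype was added after the data were seen. The rhythm fits held no term for sex, in the main test or its alternatives. The ratio of 2 copies used a prior count of 1. Of the lists, genes named passed the threshold in the comparison described, at most 4 in each direction by smallest p. For likeness, the 3 genes of highest r were named. Alternatives were DESeq2 1.42.0 and its size factors, other filters, library totals without the members, sex as a covariate, each sex alone, a cosinor test, each replicate number left out, and the libraries that went against their genotype label or lacked Xist left out. Scripts were tested on simulated data. No gene or protein sequence was used here.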

Additional observations from a re-analysis of the deposited data

Results flagged for a closer look

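The change of the sex difference with diet passed the test in 4 of the 9 genes, beside 7.91% of all genes: 3.73 for Serpina1e, 0.53 for Serpina1c, -0.82 for Serpina3m, and -1.34 for Serpina6 (log2 scale, female against male, cdHFD minus NC).

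In 9 of 216 sets of 4 livers, 1 liver stood far from the other 3, with a gap beyond Dixon's 95% critical value, which chance gives in about 1 in 20 sets. For Serpina1e these were a cdHFD-fed Hep-Bmal1WT male at ZT2 with 377 CPM against 39.1 to 91.4 CPM, the only female of the cdHFD-fed Hep-Bmal1WT set at ZT14 with 44.6 CPM against 101 to 108 CPM, a cdHFD-fed Hep-Bmal1KO female at ZT2 with 29 CPM against 44.9 to 46.9 CPM, and a cdHFD-fed Hep-Bmal1KO male at ZT6 with 31.1 CPM against 38.2 to 38.8 CPM. For Serpina3m they were an NC-fed Hep-Bmal1WT female at ZT18 with 829 CPM against 311 to 396 CPM, and an NC-fed Hep-Bmal1KO male at ZT22 with 220.2 CPM against 294 to 302 CPM. The others were a cdHFD-fed Hep-Bmal1KO male at ZT18 with 4335 CPM of Serpina1b against 3358 to 3511 CPM, a cdHFD-fed Hep-Bmal1WT female at ZT6 with 1334 CPM of Serpina3k against 878 to 916 CPM, and a cdHFD-fed Hep-Bmal1KO female at ZT18 with 336 CPM of Serpina3n against 263 to 269 CPM.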

How the results depend on the processing

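Serpina1c, Serpina1e, Serpina3k, Serpina3m, and Serpina6 kept their sex difference on NC in all 10 alternatives tried, and Serpina1c, Serpina1e, Serpina3m, and Serpina6 their change of the sex difference with diet in all 11. The counts below are of the 9 genes passing the threshold. For genotype on NC, the count of 1 became 2 without the libraries that go against their label, 3 with sex as a covariate, 5 in males alone, and 3 in females alone, and was 0 to 1 with 1 replicate number left out. For genotype on cdHFD, the count of 2 became 1 in males alone, 4 in females alone, and 3 without the libraries that go against their label, with sex as a covariate, or with no filter beyond 1 count, and was 2 to 4 with 1 replicate number left out. For sex with 1 replicate number left out, the count ranged from 5 to 6 on NC and from 1 to 4 on cdHFD. For sex by diet, the count of 4 became 5 with no filter beyond 1 count. For rhythm in Hep-Bmal1WT labels, it ranged from 0 to 4 on NC and from 0 to 7 on cdHFD with 1 replicate number left out, and on cdHFD was 2 without the libraries that go against their label and 7 with DESeq2 or with at least 10 counts in at least 24 libraries. For rhythm in Hep-Bmal1KO labels, it was 1 on either diet with no filter beyond 1 count and 2 on NC with DESeq2. Over all genes, the counts that moved by over 1.5 times fell with 1 replicate number left out, from 1960 to as few as 940 for genotype on NC, 1494 to 522 on cdHFD, 473 to 103 for genotype by diet, 2894 to 1709 for sex on NC, 896 to 388 on cdHFD, and 1230 to 510 for sex by diet. Genotype gave 578 genes on NC and 647 on cdHFD in females alone and 802 on cdHFD in males alone, and genotype by diet gave 153 in females alone and 919 without the libraries that go against their label. For rhythm, the all-gene counts fell to as few as 1462 of 2969 and 902 of 2264 in Hep-Bmal1WT labels on NC and cdHFD, and 155 of 675 and 156 of 596 in Hep-Bmal1KO labels, where DESeq2 gave 1133 and 1030 and the cosinor 340 and 360. For rhythm by genotype, 61 genes on NC ranged from 0 to 179 and 66 on cdHFD from 9 to 164. The diet change of Serpina3m reversed to 0.13 in Hep-Bmal1WT males and 0.45 in Hep-Bmal1KO males, and in Hep-Bmal1KO labels ranged from -0.24 to 0.014 with 1 replicate number left out. The cause was not tested. Scaling moved the median of all genes by at most 0.038. No paired analysis was possible because replicate numbers were given in accession order and pair no mice.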
